A study of Arabidopsis thaliana with 42 samples.

Results

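The acs2B line of Arabidopsis thaliana was represented by 3 arrays, chosen by their titles, and was set against the 3 arrays of Col, the wild-type control, whose titles place them with the single mutants. These 6 arrays are part of 42 in the series, of which 27 form the set of single mutants and 15 a set of higher order mutants that was not used here. The other 21 arrays of the single set came from 7 lines with 3 arrays each (acs9B, acs6E, acs5D, acs5C, acs4A, acs2C and acs1A) and served as a further comparison group. Every group consisted of seedlings 10 days old raised on agar medium with sucrose and given no treatment; seeds were held for 2 days at 4 C, and plants then had 16 hours of daily light at 25 C. Each line carries the name of 1 ACC synthase (ACS) gene, and acs2B shares the name of ACS2 with acs2C. The labels give neither the kind of mutation, nor its position, nor whether a line had been crossed back to Col, so each line is taken as named. Replicates are named as biological ones in the titles, but no label says that they were separate cultures, so the p-values cover only the variation among these arrays, which may be technical.

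ACC synthase converts S-adenosylmethionine to ACC, which ACC oxidase turns into ethylene, a gaseous hormone that acts on seedling growth, on senescence and on defence. The methylthioadenosine that ACC synthase releases is recycled to methionine by the methionine salvage cycle. Ethylene is bound by a family of receptors, of which ETR1 is the best known, and binding ends the degradation of the transcription factor EIN3. The Arabidopsis ACC synthases form a family whose members are expressed in overlapping patterns, and the series asks how they act in combination.

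The arrays reported log2 levels of probe sets, in which a difference of 1 is a doubling of signal. None of the 9 ACC synthase genes had a named probe set, so the ACS2 transcript could not be looked up in acs2B and the label of the line has no check of its own. Transcripts of bacterial and phage origin, which are spiked in at the labelling or hybridization step, set the Col arrays apart from the lines. The labelling control thr lay at 7.48 to 7.52 in acs2B, at 7.08 to 8.14 in the 7 other lines and at 6.51 to 6.68 in Col. The probe set for 25S ribosomal RNA stood at 7.45, 7.11 and 7.48 in acs2B, at 7.03 to 8.61 in the other lines and at 9.38, 9.11 and 9.32 in Col. On both measures acs2B lay among the lines and away from Col. The signal of actin at its 3′ end exceeded that at its 5′ end by 0.88 to 0.96 in acs2B, by 0.76 to 1.00 in the other lines and by more, with a median of 1.26, in Col. For GAPDH the same measure was 0.05 to 0.22 in acs2B, 0.03 to 0.36 in the other lines and 0.20 to 0.63 in Col. In that measure Col overlapped with the lines. Of the 45 added control probe sets, 27 differed between acs2B and Col (14 higher and 13 lower in acs2B) and 0 differed between acs2B and the mean of the other lines, also at an unadjusted p below 0.05, in limma. The part of labelling and hybridization in any difference between acs2B and Col cannot be told apart from the genotype, and for this reason each difference is given against Col and against the other lines.

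**Figure D1:**
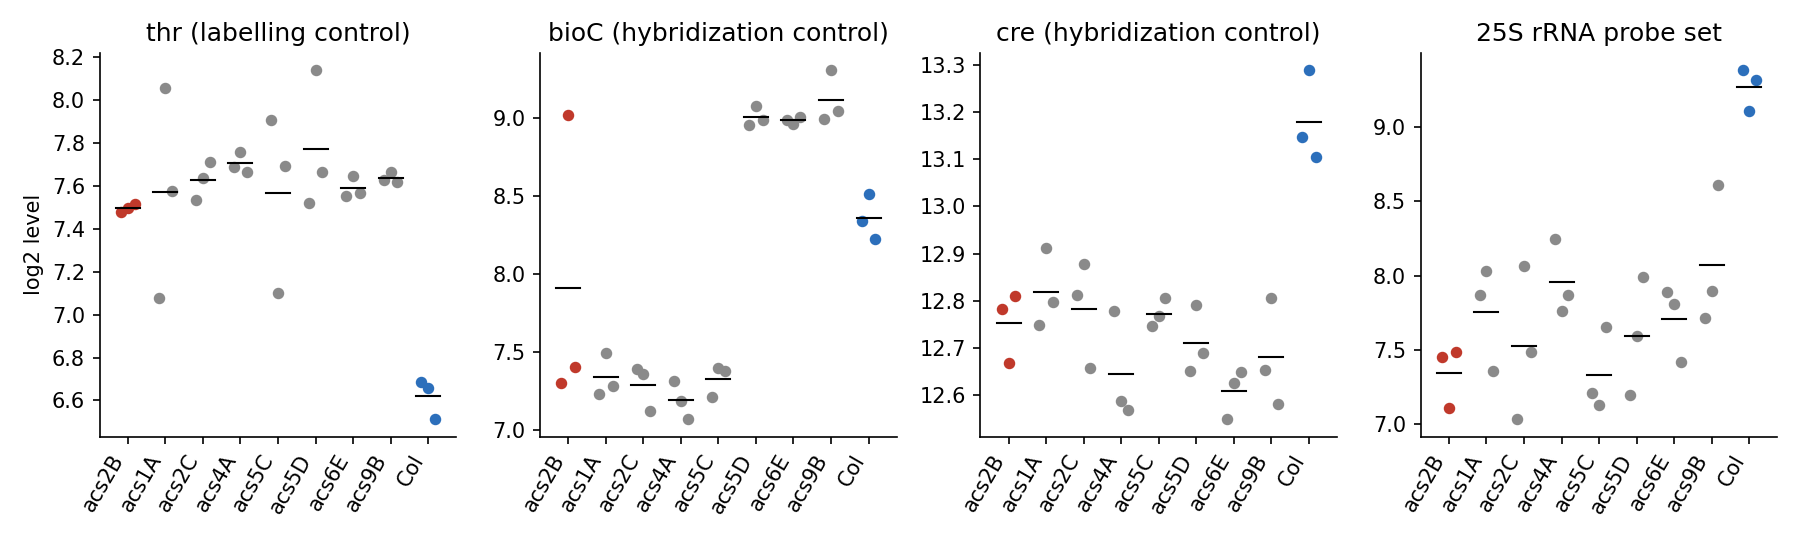
Log2 level of 3 added control transcripts (thr, bioC and cre, each a mean of its probe sets) and of the 25S ribosomal RNA probe set on each of the 27 arrays; points are arrays, bars are group means, acs2B is red, the other lines grey and Col blue. The Col arrays lie at 6.51 to 6.68 for thr and at 9.11 to 9.38 for 25S rRNA, outside all line arrays, and acs2B replicate 2 lies at 9.02 for bioC, away from the other 2 acs2B arrays.

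Within acs2B the hybridization control bioC was not uniform. It lay at 7.30, 9.02 and 7.41 in acs2B replicates 1, 2 and 3, at 7.07 to 9.30 in the other lines and at 8.34, 8.51 and 8.22 in Col. Replicates 1 and 3 shared the low level of acs1A, acs2C, acs4A and acs5C, and replicate 2 the high level of acs5D, acs6E and acs9B. The comparison with the other lines was therefore also made within each level, where the high level holds a single acs2B array that is assumed to vary like the other groups. The spread among acs2B arrays was within that of the other lines, with a median SD over probe sets of 0.0796 in acs2B, 0.0722 to 0.101 in the other lines and 0.12 in Col.

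Of 22746 probe sets, 5161 (22.7%) were called between acs2B and Col at an adjusted p below 0.05, 2314 higher (10.2%) and 2847 lower (12.5%) in acs2B. Against the mean of the 7 other lines 3145 were called (13.8%), 1539 higher (6.77%) and 1606 lower (7.06%). The same direction was called in both comparisons for 1388 probe sets (6.10%), 626 higher (2.75%) and 762 lower (3.35%), which were 26.9% of the calls against Col and 44.1% of those against the other lines. The 3 acs2B arrays did not overlap with the 3 Col arrays in 7374 probe sets (32.4%). Most called differences were small: 129 calls against Col (0.567%) and 47 against the other lines (0.207%) reached 1 on the log2 scale. The count against the other lines fell to 1519, 1929 and 1399 without acs2B replicate 1, 2 and 3, and the count called in both comparisons to 659, 978 and 667. Within the low bioC level 2681 probe sets were called, and within the high level, with its lone acs2B array, 62. In bulk seedlings, fewer cells of a type and less RNA per cell cannot be told apart in any of these values.

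The acs2B line differed most from acs9B, acs2C and Col and least from acs6E. Direct comparisons in the same model called 283 probe sets against acs6E (1.24%), 967 against acs5C (4.25%), 1493 against acs5D (6.56%), 2006 against acs4A (8.82%) and 2345 against acs1A (10.3%). Against acs2C, the line named for the same gene, 4859 were called (21.4%), 2371 higher (10.4%) and 2488 lower (10.9%) in acs2B. Against acs9B 5907 were called (26.0%), 13.5% of all probe sets higher and 12.5% lower. The shares higher and lower were 0.585% and 0.659% against acs6E, 1.63% and 2.62% against acs5C, 3.15% and 3.42% against acs5D, 4.39% and 4.43% against acs4A, and 5.28% and 5.03% against acs1A, so both directions were similar in size except against acs5C. These comparisons share the acs2B arrays. The 2 lines that carry the name of ACS2 thus differed at nearly as many probe sets as acs2B and Col did.

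**Figure D2:**
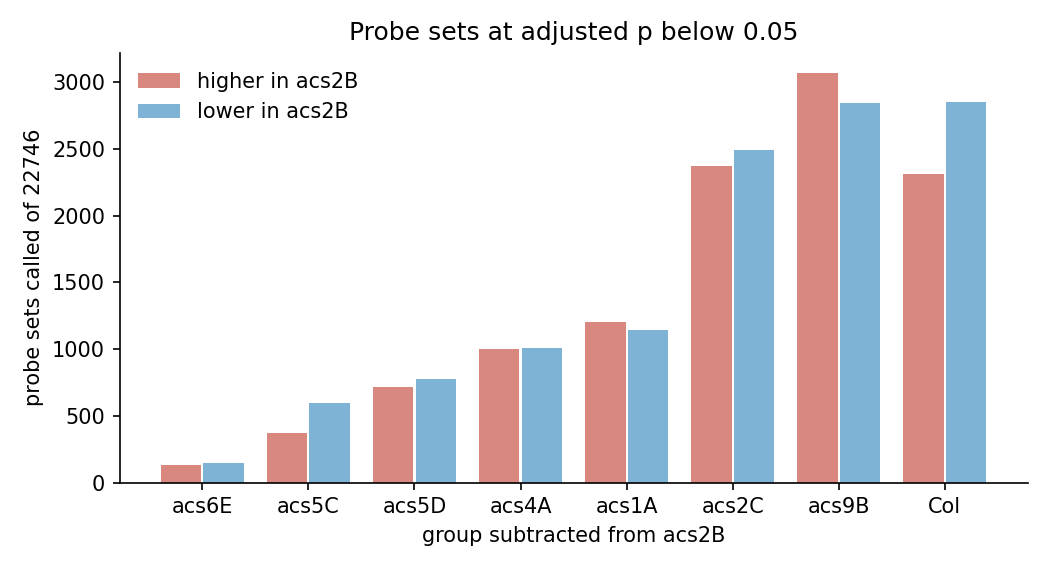
Number of probe sets, of 22746, called higher (red) or lower (blue) in acs2B at an adjusted p below 0.05 against each of the 7 other lines and Col. The bars run from 133 higher and 150 lower against acs6E to 3064 higher and 2843 lower against acs9B.

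A run of neighbouring genes on chromosome 1, just before ACS2 in the order of the annotation, had lower mean levels in acs2B than in any other group. The genes were AT1G01170, AT1G01225, AT1G01230, AT1G01240, AT1G01300, HTR12, TBL25 and AT1G01440, which lie 41 to 6 gene places before ACS2. HTR12 encodes the centromeric form of histone H3, and TBL25 belongs to the TRICHOME BIREFRINGENCE-LIKE family, whose members add acetyl groups to cell wall polysaccharides. All 8 were called lower in both comparisons, by 0.43 to 0.99 against the other lines and by 0.53 to 1.01 against Col.

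AT1G01230 stood at 8.09, 8.15 and 8.10 in acs2B, at 8.42 or higher (median 8.70) in the other lines and at 9.13, 9.05 and 8.95 in Col. It was lower in acs2B by 0.59 ± 0.06 (SE) than in the other lines (adjusted p = 8e-07) and by 0.93 ± 0.07 than in Col (6.2e-09). No acs2B array reached the lowest array of any other group. TBL25 showed the same separation, at 9.90, 10.00 and 9.83 in acs2B, at 10.23 to 10.79 in the other lines and at 10.36, 10.64 and 10.56 in Col, with differences of -0.68 ± 0.06 (3.4e-07) and -0.61 ± 0.08 (6.1e-06). Its signal in acs2B was 62.5% of that in the other lines. HTR12 was dimmer but very even, at 5.18, 5.18 and 5.20 in acs2B, at 5.40 to 5.96 in the other lines and at 5.68, 5.80 and 5.68 in Col, and lay -0.43 ± 0.07 from the other lines (0.00042) and -0.53 ± 0.10 from Col (0.00029).

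AT1G01440, the nearest of the 8 to ACS2, lay at 6.15, 6.60 and 6.42 in acs2B, at 6.80 to 7.29 in the other lines and at 7.30, 6.96 and 7.04 in Col. At the far end of the run, AT1G01170 lay at 9.89, 10.05 and 9.79 in acs2B, at 10.29 to 10.64 in the other lines and at 10.71, 10.82 and 10.75 in Col. The acs2B arrays of both genes were below all 24 other arrays, as were those of AT1G01225. AT1G01240 had the largest difference of the run, -0.99 ± 0.12 from the other lines (3.4e-05), with 50.2% of their signal, but acs6E was also low in this gene, with a mean of 8.27 against 8.14 in acs2B, and the difference of -0.13 between acs2B and acs6E was not called (adjusted p = 0.85). AT1G01300 lay at 8.55, 8.51 and 8.65 in acs2B, at 8.51 to 9.32 in the other lines and at 9.14, 9.14 and 9.15 in Col, so acs2B was clear of Col and overlapped with the lowest arrays of the other lines.

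No call of the 8 genes was lost when any acs2B or Col array was left out. Within the low bioC level their differences were -1.17 to -0.42, and within the high level, with acs2B replicate 2 alone, -0.71 to -0.38. The calls of TBL25, AT1G01230 and AT1G01170 held in both levels; the other 5 missed the threshold with the lone array (adjusted p = 0.13 to 0.18). Each of the 8 was also lower in acs2B than in acs2C, by 0.39 to 1.49 (adjusted p = 1.3e-06 to 0.012), so these 8 genes were low in 1 of the 2 lines named for ACS2. They were named for means below every other group, acs2C included, so the direction of this difference follows from the choice.

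The run from AT1G01170 to AT1G01440, whose ends were chosen after the values were seen, held 14 genes with a named probe set. Of these, 8 were called lower against the other lines and 10 against Col, 6 lay below all 24 other arrays, and the median difference was -0.45 from the other lines and -0.59 from Col, beside 0.00 and -0.02 over all probe sets. Of the other 6 genes of the run, AT1G01180 and AT1G01310 had acs2B means of 4.34 and 3.78, under the level of 4.65 that bounds the dimmest 25% of probe sets, and AT1G01250, AT1G01320, AT1G01390 and UGT72B3 differed from the other lines by -0.23 to 0.16 without a call. UGT72B3 was called against the lines at -0.23 without Col replicate 1 (adjusted p = 0.041). Its call against Col, -0.36, was lost without Col replicate 2 or 3 or acs2B replicate 2 (-0.32 to -0.26, 0.085 to 0.14). In windows of equal size, the 20 genes before ACS2 held 9 measured genes, of which 3 were called lower against the other lines. Their median difference from the lines was -0.07, and 3 lay below all 24 arrays. The next 20 genes after ACS2 held 10 measured genes, with a median of -0.04. Of these, AT1G01540 was called lower against the other lines, at -0.21, and 0 lay below all 24 arrays. With all measured genes the 2 medians were thus close, unlike that of the run with its chosen ends. Without the dimmest 25% of probe sets they differed more. The 6 genes left before ACS2 had a median of -0.33 from the lines and the 8 left after it -0.07. The call of AT1G01540 was lost without acs2B replicate 1 (-0.19, 0.19) or 3 (-0.19, 0.17). The 6 measured genes before AT1G01170 had a median difference of -0.01 from the other lines, with 1 called lower.

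Along the 5 chromosomes, 13216 measured genes gave 13121 windows of 20 neighbouring genes, and 36 of the genes lay below all 24 other arrays in acs2B. The windows over the run held up to 6 such genes, and those elsewhere at most 2. Counting genes called lower against the other lines, the run's windows held up to 9 and the fullest window elsewhere 8, so by that count the run stood out little. Windows overlap and share genes, and these counts are a description.

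**Figure D3:**
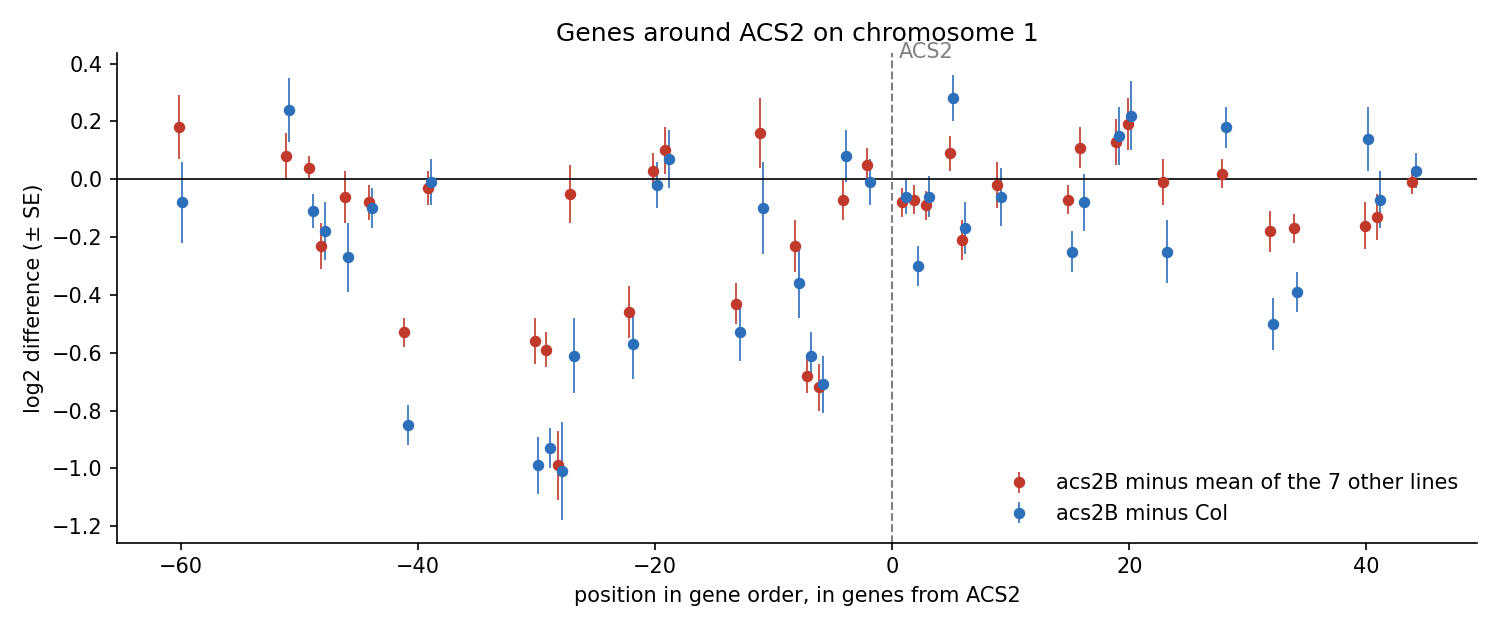
Log2 difference ± SE of acs2B from the mean of the 7 other lines (red) and from Col (blue) for the measured genes around ACS2, plotted by place in the gene order of chromosome 1 with ACS2 at 0. From 41 to 6 places before ACS2, 8 of 14 measured genes lie 0.43 to 0.99 below the other lines. The genes after ACS2 lie between -0.21 and 0.19 of the other lines.

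Among all genes, the leading ones that were lower in acs2B in both comparisons included AT3G62550, PORB, CCL and Fes1B. AT3G62550 stood at 7.15, 8.17 and 7.54 in acs2B, at 6.65 to 9.85 (median 9.23) in the other lines and at 10.78, 9.55 and 9.93 in Col. It was lower in acs2B by 2.47 ± 0.25 than in Col (adjusted p = 3.3e-07), a 5.53-fold difference that was the largest fall from Col on the array, and by 1.32 ± 0.19 than in the other lines (0.00015). The acs2B arrays lay below the Col arrays, and the mean of acs6E, 6.81, was lower than that of acs2B, 7.62.

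PORB encodes a protochlorophyllide oxidoreductase, which carries out the light-dependent step of chlorophyll synthesis. It lay at 9.66, 9.98 and 9.73 in acs2B, at 9.03 to 11.51 in the other lines and at 11.53, 11.11 and 11.21 in Col, with differences of -0.89 ± 0.10 from the other lines (6.7e-06) and -1.49 ± 0.13 from Col (2.4e-08). CCL, known for a short-lived transcript under clock control, lay at 9.58, 10.24 and 9.73 in acs2B, at 9.15 to 11.71 in the other lines and at 11.46, 11.03 and 11.24 in Col, with differences of -0.86 ± 0.14 (0.00037) and -1.39 ± 0.19 (1.1e-05). Fes1B, of a family of exchange factors for the chaperone HSP70, lay at 5.87, 5.77 and 5.94 in acs2B, at 5.27 to 7.50 in the other lines and at 7.23, 6.73 and 6.77 in Col. In each of these genes all acs2B arrays were below all Col arrays, and the mean of acs6E was lower than that of acs2B.

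Further genes with both calls were AT2G15960, AT3G19680, AT1G25230 and AT3G19850, at -1.30 to -0.92 from the other lines and -1.72 to -0.93 from Col. Together the naming rule took 21 probe sets lower in both comparisons, 12 by size and 10 among genes with a symbol, with PORB in both. Of these 21, 11 kept both calls whichever acs2B or Col array was left out, 20 were called within the low bioC level and 2 within the high level, where all 21 kept their sign. The choice of these 21 had used all 3 acs2B arrays, so calls and signs within a level were partly set by it. Against acs5D, acs6E and acs9B, with acs2B replicate 2 alone, AT3G62550 differed by -0.34 and CCL by -0.13. These differences were smaller in size than those of -1.32 and -0.86 against all 7 lines.

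Genes higher in acs2B in both comparisons included AT3G24460, AT5G54130, LPR1, GIS and TBL26. AT3G24460 stood at 8.27, 8.73 and 8.82 in acs2B, at 5.65 to 8.56 (median 7.10) in the other lines and at 7.04, 7.41 and 7.39 in Col, a difference of 1.47 ± 0.22 from the other lines (0.00017) and of 1.33 ± 0.29 from Col (0.0017). AT5G54130 was measured by 2 probe sets that gave 1.14 ± 0.17 and 1.02 ± 0.16 against the other lines and 0.92 ± 0.22 and 1.17 ± 0.21 against Col. The acs2B arrays of both genes were above all Col arrays; those of AT5G54130 were within the range of the other lines, and replicates 2 and 3 of AT3G24460 were above it.

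LPR1, a multicopper oxidase known for the growth response of roots to low phosphate, lay at 6.32, 6.21 and 6.39 in acs2B, at 5.09 to 6.53 in the other lines and at 5.87, 5.29 and 5.23 in Col, a difference of 0.65 ± 0.13 from the lines (0.0023) and 0.84 ± 0.17 from Col (0.0011). GIS, a zinc finger factor of trichome formation, was above all 24 other arrays, at 6.38, 6.18 and 6.35 in acs2B, at 5.40 to 6.07 in the other lines and at 5.65, 5.78 and 5.68 in Col. TPS-CIN, a terpene synthase that makes cineole, was higher in acs2B by 0.47 ± 0.07 than in the other lines and by 1.12 ± 0.09 than in Col. TBL26, of the same family as TBL25, lay at 8.82, 8.51 and 8.79 in acs2B, at 5.54 to 8.75 in the other lines and at 6.60, 8.03 and 7.47 in Col, and rose by 1.65 ± 0.27 against the lines (0.00035) and by 1.34 ± 0.35 against Col (0.0076). Its call against Col was lost without Col replicate 1, at 0.96 (adjusted p = 0.066). Of 20 probe sets that the rule took as higher, 10 kept both calls whichever acs2B or Col array was left out and 19 were called within the low bioC level. Within the high level 0 were called in limma (16 at an unadjusted p below 0.05) and all 20 kept their sign.

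**Figure D4:**
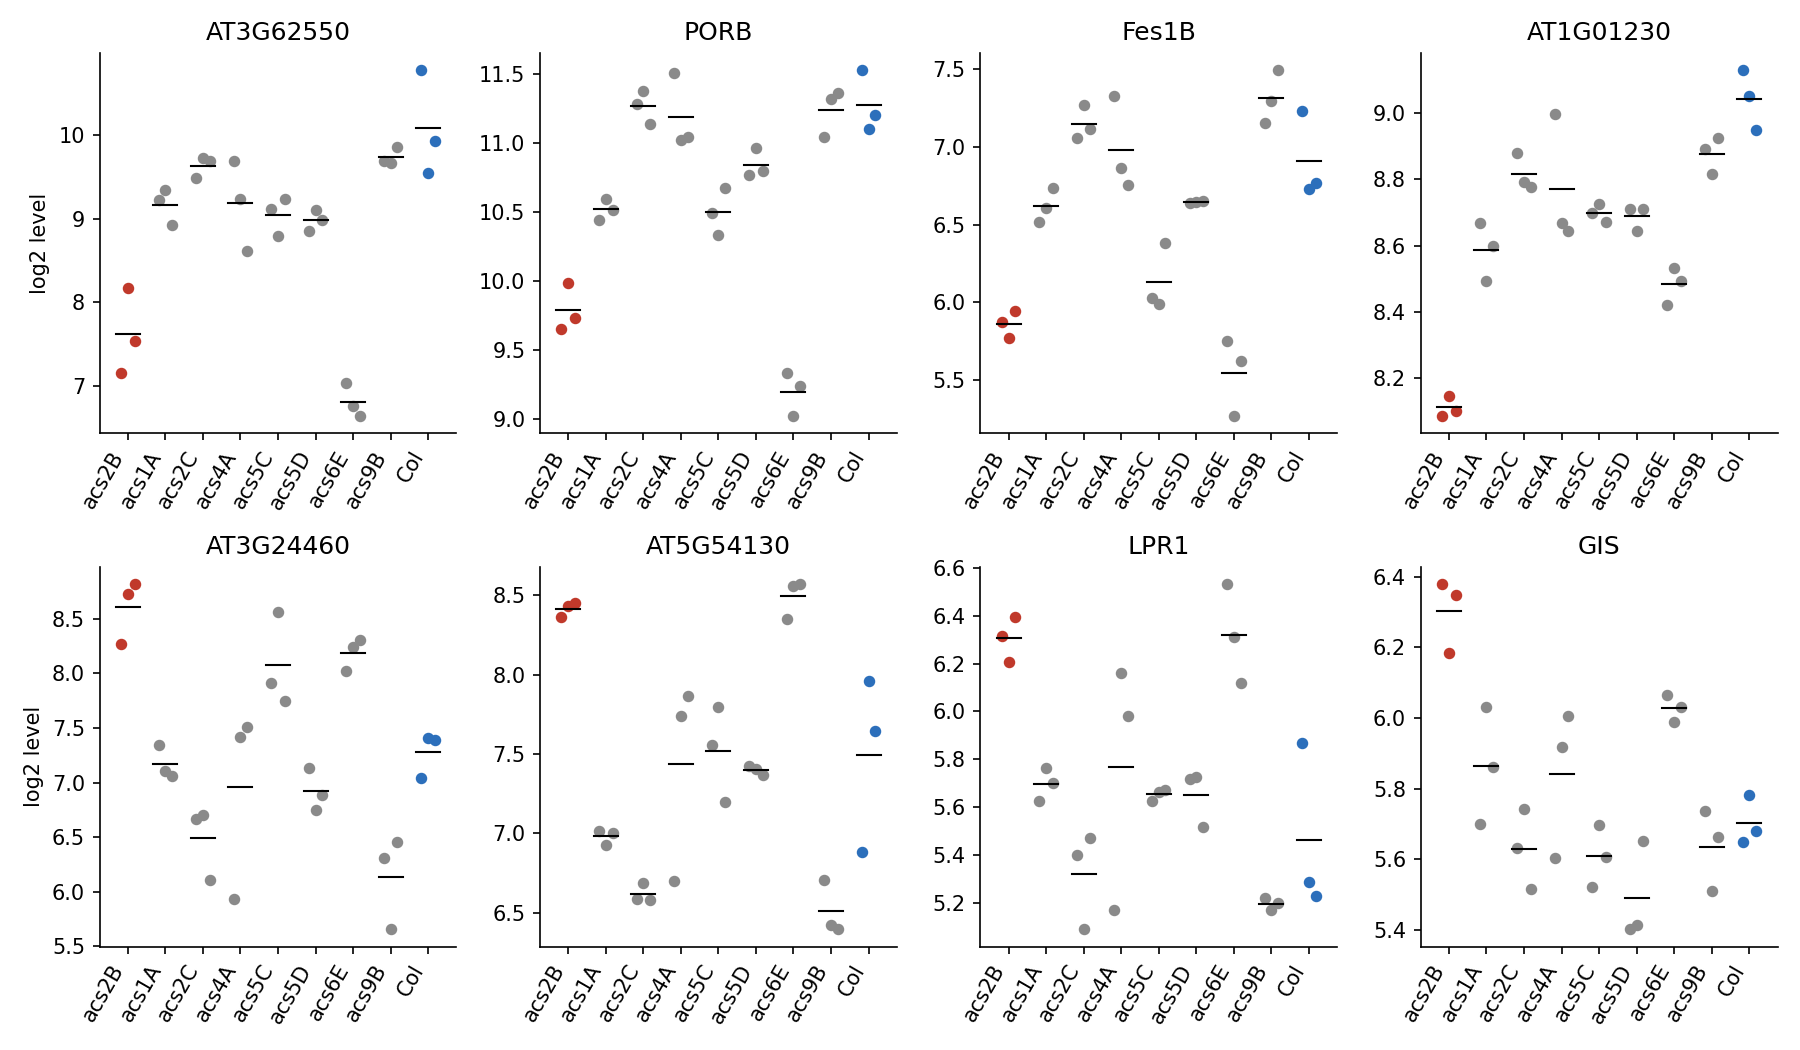
Log2 level of 8 genes on each of the 27 arrays of the single set; points are arrays, bars are group means, acs2B is red, the other lines grey and Col blue. In AT3G62550, PORB and Fes1B acs2B lies below Col and acs6E lower still, in AT1G01230 acs2B lies below every other array at 8.09 to 8.15, and in AT3G24460, AT5G54130, LPR1 and GIS acs2B lies above Col; AT5G54130 is shown by its probe set with the difference of 1.14.

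In the genes that led the comparisons, acs6E was mostly the line nearest to acs2B in direction. For all 12 probe sets taken by size as higher, acs6E had the highest mean of the 7 other lines, and for 10 of the 12 taken as lower it had the lowest. Between acs2B and acs6E, 0 of the 12 higher probe sets were called, also at an unadjusted p below 0.05, and 1 of the 12 lower ones was called, with 4 at an unadjusted p below 0.05, in limma. The one called was PORB, 0.59 higher in acs2B than in acs6E (adjusted p = 0.02). Of the 8 genes of the run before ACS2, 6 were called lower in acs2B than in acs6E, by 0.37 to 0.58. The exceptions were AT1G01240 and AT1G01225, the second at -0.39 (adjusted p = 0.056). These 8 were named, after the values were seen, for means below every other group, acs6E included. Their direction against acs6E therefore follows from the choice and is not set against that of the 12 higher and 12 lower probe sets.

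The acs2B arrays lay beyond all 24 others in 125 probe sets (0.550%), above them in 53 (0.233%) and below them in 72 (0.317%). Of these, 22 above (0.163% of named probe sets) and 40 below (0.296%) had a named gene. Among those above, AT2G41480 stood at 7.62, 7.80 and 7.79 in acs2B, at 6.61 to 7.62 in the other lines and at 7.19, 7.12 and 7.14 in Col, and was higher by 0.69 ± 0.08 than the lines and by 0.59 ± 0.10 than Col. ARD4, an acireductone dioxygenase of the methionine salvage cycle, lay at 11.20, 11.19 and 11.18 in acs2B, at 9.77 to 11.06 in the other lines and at 10.98, 11.01 and 11.02 in Col. It was called against the lines (0.70 ± 0.10, adjusted p = 0.00011) and not against Col (0.18 ± 0.13, 0.34), although the acs2B and Col arrays did not overlap. Apart from genes of the run before ACS2, those furthest below the lines in this set were AT2G36690 and the plastid genes ndhK and ndhJ. AT2G36690 lay at 5.67, 5.64 and 5.64 in acs2B, at 5.72 to 6.98 in the other lines and at 5.90, 6.19 and 6.33 in Col. Without Col replicate 3 its difference from Col was -0.39 and not called (0.054).

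Few genes of the ethylene pathway could be read. AT1G12010, an ACC oxidase gene, differed by -0.08 ± 0.10 from Col and by -0.01 ± 0.08 from the other lines, without a call (adjusted p = 0.62 and 0.97). EIN3, the transcription factor of ethylene signalling, differed by -0.07 ± 0.09 and -0.13 ± 0.07, without a call (0.63 and 0.23). RTE1, which acts with the receptor ETR1, was at 7.72, 7.85 and 7.72 in acs2B, at 7.69 to 8.22 in the other lines and at 8.07, 8.14 and 7.99 in Col. It was called lower in both comparisons, by 0.30 ± 0.07 than Col (0.0035) and by 0.21 ± 0.05 than the lines (0.0094). The second call was lost without acs2B replicate 1 (-0.19, 0.079) or 3 (-0.19, 0.078). The ethylene- and jasmonate-responsive defensin gene PDF1.2 spread widely, at 6.03, 5.63 and 4.99 in acs2B, at 4.53 to 6.05 in the other lines and at 5.30, 4.52 and 4.58 in Col. Its difference from Col of 0.75 ± 0.26 (0.039) was lost without Col replicate 2 or 3 or acs2B replicate 1 or 2 (0.51 to 0.71, adjusted p = 0.099 to 0.22), and against the lines it was called only without acs2B replicate 3 (0.79, 0.032).

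Of 15 genes on the auxin list 4 were measured. Of these, 3 were lower in both comparisons, beside 3.35% of all probe sets, and the lateral root factor LBD29 was not called (0.10 ± 0.08 from Col and 0.12 ± 0.06 from the lines). The 3 were GH3.3 and WES1, which join auxin to amino acids, and the auxin response repressor IAA29. GH3.3 was below all 24 other arrays, at 6.94, 6.94 and 6.95 in acs2B, at 7.32 to 8.08 in the other lines and at 7.55, 7.20 and 7.41 in Col. Its difference from the lines, -0.65 ± 0.11, stayed called without any one acs2B or Col array, while that from Col, -0.44 ± 0.14 (0.026), was lost without Col replicate 1 or 3 or any 1 acs2B replicate (-0.45 to -0.36, adjusted p = 0.06 to 0.11). WES1 differed by -0.57 ± 0.11 from the lines and by -0.53 ± 0.14 from Col, and the call against Col was lost without acs2B replicate 1 (-0.43, 0.065). It lay at 8.25 to 8.59 in acs2B and as low in acs6E, at 8.29 to 8.34. IAA29 differed by -0.60 ± 0.16 and -0.62 ± 0.21. It lay at 5.58 to 5.85 in acs2B and at 5.42 to 5.63 in acs6E. The call against Col was lost without Col replicate 1 or 3 or acs2B replicate 1 or 3 (-0.66 to -0.53, 0.054 to 0.12) and that against the lines without acs2B replicate 3 (-0.51, 0.11). Within the high bioC level, with acs2B replicate 2 alone, none of the 3 was called against the lines, at -0.64 for GH3.3 (0.16), -0.54 for IAA29 (0.48) and -0.28 for WES1 (0.63). EXO, a cell expansion gene that responds to brassinosteroid, was lower by 0.98 ± 0.25 than Col and by 0.65 ± 0.19 than the lines. These calls were lost without Col replicate 1 (-0.74, 0.056) and without acs2B replicate 1 or 3 (-0.53, 0.18, and -0.61, 0.12). EXO lay at 9.28 to 9.82 in acs2B and at 8.78 to 11.62 in the other lines, with the lowest array in acs4A.

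Among plastid genes, calls against the other lines were all in the lower direction. Of 69 plastid-encoded genes, 8 were called higher and 14 lower than in Col, and 0 higher and 9 lower than in the other lines (0 and 21 at an unadjusted p below 0.05), with a median of -0.08 from the lines and -0.07 from Col. The share higher than in Col was 11.6%, near the 10.2% of all probe sets, and the share lower was 20.3%, beside 12.5%. Against the lines 0 were higher, beside 6.77%, and 13% were lower, beside 7.06%. In both comparisons 4.35% were lower, near the 3.35% of all probe sets. The 3 lower in both were ndhK, a subunit of the plastid NDH complex, the ribosomal protein gene rpl16 and the protease subunit gene clpP. ndhK stood at 9.65, 9.75 and 9.70 in acs2B, at 9.92 to 11.42 in the other lines and at 10.26, 10.50 and 10.34 in Col, below all 24 other arrays, with differences of -0.77 ± 0.11 from the lines and -0.66 ± 0.15 from Col. The gene ndhJ, of the same complex, was also below all others, at 10.64, 10.65 and 10.32 in acs2B, at 10.68 to 11.97 in the other lines and at 10.71, 11.09 and 10.76 in Col. Its difference from Col of -0.32 ± 0.12 was not called (0.054), and was called without Col replicate 1 (-0.39, 0.038) and, at -0.32, with the dimmest probe sets left out, an intensity trend or a replicate block (0.041 to 0.046). For clpP the call against the lines, -0.18 ± 0.05, was lost without acs2B replicate 2 (-0.15, 0.10) or 3 (-0.19, 0.05). The mean of the lines includes acs9B, the highest line in ndhK (11.12 to 11.42), ndhJ (11.74 to 11.97) and rpl16 (12.81 to 12.94). Within the low bioC level, without acs9B, the differences were -0.56 for ndhK, -0.51 for ndhJ, -0.30 for rpl16 and -0.12 for clpP. The last was not called (adjusted p = 0.20). Of 6 measured nuclear photosynthesis genes, 3 were lower than in Col and 2 lower than in the lines, beside 12.5% and 7.06% of all probe sets, with none in both. The 3, PSBW, PSAN and PSAE-1, at -0.19 to -0.17 from Col, lost that call on the 6 arrays alone and without some single arrays. The antenna protein gene LHCB4.2 was 0.21 ± 0.04 lower than in the lines, and its difference from Col, -0.09 ± 0.05, was not called. For LHCB4.1 the call against the lines, -0.13 ± 0.04, was lost without any 1 acs2B replicate (-0.15 to -0.11, adjusted p = 0.064 to 0.19).

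Of 21 genes on the flavonoid list 5 were measured, and 3 of these were called higher than in the other lines, beside 6.77% of all probe sets, the flavonol glycosyltransferase genes UGT78D1 and UGT78D2 and AT4G14090, and 0 were called against Col in limma (1 higher and 1 lower at an unadjusted p below 0.05); the 2 comparisons were not tested against each other. UGT78D2, called against Col only on the 6 arrays alone (0.48, 0.033), lay at 9.18, 9.05 and 9.30 in acs2B, at 7.60 to 9.48 in the other lines and at 8.52, 8.94 and 8.64 in Col. Its difference from the lines, 0.64 ± 0.16, and that of UGT78D1, 0.40 ± 0.10, were lost without acs2B replicate 3 (0.58, 0.072, and 0.39, 0.056), and that of AT4G14090, 0.26 ± 0.07, without acs2B replicate 1 or 3 (0.22 each, 0.13 and 0.14). Within the high bioC level, with acs2B replicate 2 alone, the differences were 0.40 for UGT78D2 (0.65), 0.29 for UGT78D1 (0.59) and 0.03 for AT4G14090 (0.97). Within the low level they were 0.79 (0.011), 0.48 (0.015) and 0.39 (0.0056) in the same order. HYH, a bZIP factor of light signalling related to HY5, rose by 1.07 ± 0.21 against the lines (0.0019), with 7.81, 7.52 and 7.66 in acs2B, 5.22 to 8.22 in the other lines and 6.49, 7.22 and 7.23 in Col. Its difference from Col of 0.68 ± 0.28 was not called (0.081), except on the 6 arrays of acs2B and Col alone (0.045).

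Among 52 UDP-glycosyltransferase genes, 8 were higher and 5 lower than in Col, and 11 higher and 5 lower than in the other lines, with 5 higher and 2 lower in both. The shares were 15.4% higher and 9.62% lower than in Col, beside 10.2% and 12.5% of all probe sets. Against the lines they were 21.2% and 9.62%, beside 6.77% and 7.06%. In both comparisons 9.62% were higher and 3.85% lower, beside 2.75% and 3.35%. The lower shares were thus near those of all probe sets. UGT72E2, which glucosylates monolignols, was higher by 0.46 ± 0.09 than in Col and by 0.31 ± 0.07 than in the lines. UF3GT, an anthocyanin glycosyltransferase gene, lay above all 24 other arrays, at 6.50, 6.43 and 6.55 in acs2B, at 5.59 to 6.37 in the other lines and at 5.95, 6.17 and 5.99 in Col. It is not on the flavonoid list. In limma it was called higher than in Col (0.46 ± 0.13, adjusted p = 0.012) and than in the lines (0.45 ± 0.10, 0.0035). Of 22 bZIP factors found by gene name, 1 was higher and 8 (36.4%) lower than in Col, beside 12.5% of all probe sets lower. This family leaves out HYH, which was called higher than in the lines. Against the other lines 0 of these 22 were higher (1 at an unadjusted p below 0.05, in limma) and 3 lower (13.6%, beside 7.06%). These 3, BZIP61, BZIP34 and BZIP53, were lower in both comparisons, as were 3.35% of all probe sets. In acs6E they lay as low, at 7.7 to 7.8, 4.7 to 4.8 and 9.7 to 9.9 in the same order. The acs2B arrays lay at 7.7 to 7.9, 4.8 to 5.0 and 9.7 to 10.0. BZIP61 differed by -0.87 ± 0.13 from the lines and by -0.67 ± 0.18 from Col, the second call being lost without Col replicate 1 (-0.50, 0.065). BZIP53 and BZIP34 lost their calls against the lines without acs2B replicate 1 (-0.22, 0.15, and -0.25, 0.18), and BZIP34 also without replicate 3 (-0.33, 0.073). BHLH101, a factor of the response to iron deficiency, was lower by 1.43 ± 0.30 than Col (0.0014) and by 0.78 ± 0.23 than the lines (0.024). The call against the lines was lost without any 1 of acs2B replicates 1, 2 and 3 (-0.76, -0.87 and -0.71, with adjusted p = 0.11, 0.053 and 0.14). BHLH101 lay at 4.96 to 5.28 in acs2B and at 4.38 to 7.42 in the other lines, with acs1A at 4.38 to 4.59 and acs4A at 4.41 to 5.49. Within the low bioC level its difference was -0.60 and not called (adjusted p = 0.19), and within the high level -0.96.

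**Figure D5:**
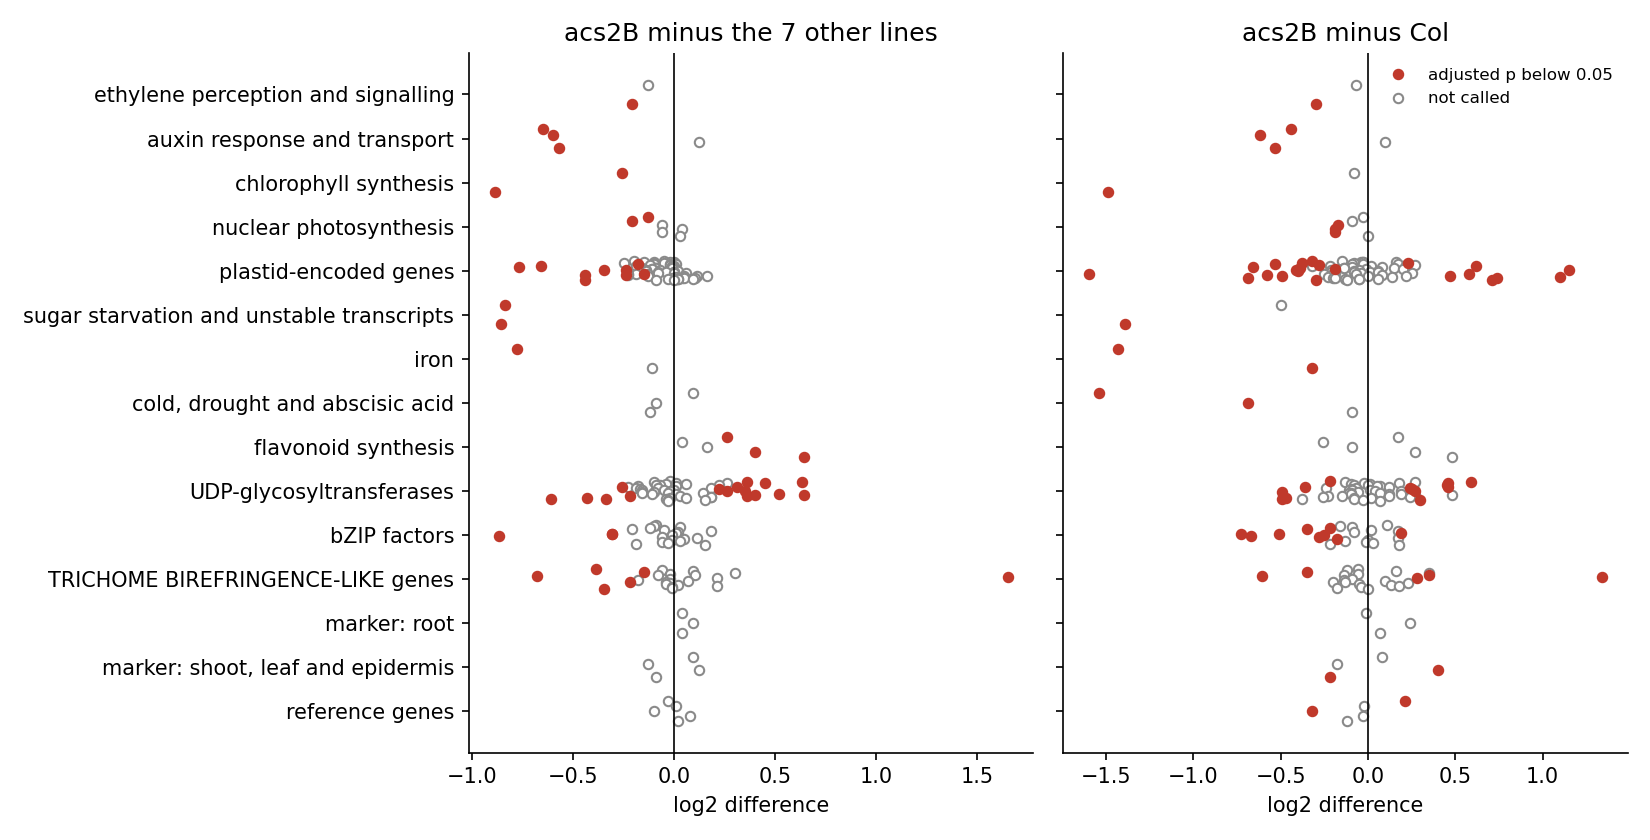
Log2 difference of each measured member of 15 gene lists in acs2B minus the 7 other lines (left) and acs2B minus Col (right); filled red points were called at an adjusted p below 0.05 and open points were not. The auxin members GH3.3, IAA29 and WES1 lie at -0.65 to -0.44 in both panels. Members of the flavonoid list, which leaves out UF3GT, are called in the left panel only, and the root markers in neither.

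Some of the largest differences from Col did not separate acs2B from the other lines. AT5G10770 stood at 7.32, 6.95 and 7.04 in acs2B, at 6.56 to 7.30 in the other lines and at 4.94, 5.01 and 5.49 in Col, a difference of 1.95 ± 0.15 from Col (2.6e-09) and of 0.13 ± 0.11 from the lines (0.51). HRGP1, an extensin gene whose probe set may bind related transcripts, differed by 1.23 ± 0.13 from Col and by 0.15 ± 0.10 from the lines. The plastid gene psbN lay at 8.04, 7.86 and 7.74 in acs2B, at 7.66 to 8.35 in the other lines and at 9.65, 9.40 and 9.38 in Col, and the cold-regulated gene COR15A at 7.24, 7.44 and 7.25 in acs2B, at 6.09 to 8.40 in the other lines and at 8.55, 9.13 and 8.86 in Col. Their differences from Col were -1.60 ± 0.10 and -1.54 ± 0.22, and those from the lines -0.19 ± 0.08 and 0.09 ± 0.16, without a call. Within the run before ACS2, the second probe set of AT1G01320 was of this kind, 1.75 ± 0.14 above Col and 0.01 ± 0.11 from the lines, while the brighter one was called in neither comparison.

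In 49 probe sets (0.215%) the comparisons gave calls of opposite sign. STOMAGEN, a peptide gene that promotes stomata, lay at 8.52, 8.70 and 8.66 in acs2B, at 7.93 to 8.62 in the other lines and at 9.32, 9.11 and 9.08 in Col, and was 0.54 ± 0.09 lower than in Col (0.0002) and 0.35 ± 0.07 higher than in the lines (0.0023). AT2G03420 did the same, at -0.46 ± 0.08 and 0.27 ± 0.06. For these genes acs2B lay between Col and most other lines.

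The tissue markers differed little between acs2B and the other lines. Of 15 root markers 3 were measured, PYK10, EXPA7 and EXPA18, and 0 were called in either comparison, also at an unadjusted p below 0.05. Their mean level was 8.94 to 9.07 in acs2B, 8.60 to 9.21 in the other lines and 8.76 to 9.10 in Col, and PYK10, a root glucosidase, stood at 13.50 to 13.56 in acs2B. Of 16 shoot, leaf and epidermis markers 4 were measured, with a mean of 6.46 to 6.53 in acs2B, 6.34 to 6.61 in the other lines and 6.44 to 6.50 in Col. Against Col the stomatal factor SPCH was called higher (0.40 ± 0.11) and the leaf polarity factor YAB3 lower (-0.22 ± 0.08). The call of SPCH was lost without Col replicate 1 or 3 or acs2B replicate 3 (0.31 to 0.35, adjusted p = 0.05 to 0.069), and that of YAB3 without Col replicate 1 or 3 or any 1 acs2B replicate (-0.24 to -0.18, 0.06 to 0.14). Neither was called against the lines. The shoot apex marker CLV3 was dim in every group, at 3.79 to 4.38, and no marker of vascular, seed or flower tissue on the lists had a named probe set. Of 5 measured genes commonly used as stable controls, 1 was higher and 1 lower than in Col, and 0 differed from the lines (1 lower at an unadjusted p below 0.05).

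Within acs2B, 69 probe sets spanned more than 1 on the log2 scale, and replicate 1 was the array farthest from the other 2 in 47 of them, replicate 2 in 19 and replicate 3 in 3. The named genes with the largest SD were AT2G20670, AT4G27280 and AT1G33055, the last called against Col only without acs2B replicate 2 (-0.99, 0.022). AT2G20670 lay at 9.38, 11.29 and 10.80 in acs2B, at 8.58 to 11.39 in the other lines and at 11.32, 11.50 and 11.49 in Col, and AT4G27280 at 8.67, 10.46 and 9.99 in acs2B, at 8.84 to 10.73 in the other lines and at 10.56, 10.53 and 10.90 in Col. In both genes replicate 1 was low. AT2G20670 was called against Col only without acs2B replicate 2 (-1.35, 0.012), and the call of AT4G27280, -0.95 ± 0.31 (0.026), was lost without acs2B replicate 1 (-0.44, 0.25) or Col replicate 3 (-0.84, 0.092).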

How the data were processed

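RNA of 27 single-set arrays was measured on one-colour Affymetrix arrays; 10 ug of total RNA was labelled per sample. The values are the authors' log2 levels as deposited, 1 for each probe set on each array, made with RMA per the submitters' processing notes; RMA corrects background, normalizes quantiles and summarises probes, and compresses the differences of dim probe sets. Sources used here do not give its version or which arrays were run together. Array medians were 6.77 to 6.83. Array number, 3 per group, limits the precision.

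Of 22810 probe sets, 64 controls were left out. Names came from the platform annotation and RefSeq's TAIR10.1 table, used only for names and gene order: 13513 probe sets had 1 gene (1580 with a symbol, 11933 with a locus code, 13436 matched in RefSeq), 503 several and 8730 none here.

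Linear models (limma 3.58.1, R 4.3.3, lmFit and eBayes, 1 coefficient per group, all 27 arrays) gave acs2B minus Col and acs2B minus the mean of the 7 other line means; the comparisons share the acs2B arrays. P-values were two-sided, adjusted by Benjamini-Hochberg over 22746 probe sets, and called below 0.05. The model was tested on simulated data with 100 probe sets, of 22746, changed by 0.5 and 100 by 1. Against Col, 79% of the smaller and 99% of the larger changes were found with 9 false calls, and against the lines 95% and 100% with 14. The simulated arrays had independent noise and otherwise equal group means, without the offset of Col, differences among lines or bioC levels. These counts therefore do not give the rate of false calls in the real data.

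Named genes were the 12 higher and 12 lower called alike in both comparisons with acs2B and Col arrays apart (ranked by the smaller difference), 10 and 10 of the same with a symbol, 5 and 5 called against Col only, 3 and 3 of opposite sign, 5 and 5 beyond all 24 other arrays, called members of 33 lists (437 entries, 52 measured, 11 lists with none), neighbours of ACS2, and the 3 genes of largest SD in acs2B; a selection is described. Called members of 15 families read from gene names were added after the values were seen. A gene with several probe sets was read from its brightest one on the lists. Line, lists and rules were chosen with earlier results of these data known. Alternatives were a filter on the dimmest 25% of probe sets, an intensity trend, a second quantile normalization, the 6 arrays alone, a replicate block, other lines without acs2C or acs6E, bioC levels, and each acs2B or Col array left out. Correlations of deviations of same-numbered acs2B and Col arrays were -0.06, -0.12 and 0.05, so numbers were not taken as pairs.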

Additional observations from a re-analysis of the deposited data

Results flagged for a closer look

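In 15 named genes acs2B and acs2C, both named for ACS2, were called on opposite sides of Col, and the direct difference between the lines was itself called in limma. Direct differences between these lines were called in 21.4% of all probe sets. The share of all probe sets called on opposite sides of Col is not given here. Most named genes were chosen by acs2B calls against Col or a mean that includes acs2C, so the count of 15 is a description. The difference of acs2B minus acs2C was negative in 6 of them: -1.57 in AT3G04210, -1.53 in AT1G25230, -1.49 in AT1G01240, -1.26 in BZIP61, -0.85 in AT2G36690 and -0.84 in GH3.3. It was positive in the other 9: 2.68 in TBL26, 2.68 in AT5G42760, 2.12 in AT3G24460, 1.80 in AT5G54130, 1.53 in AT5G19875, 1.46 in AT5G06790, 1.05 in IAGLU, 1.01 in Hop3 and 0.95 in AT2G41480. The acs2B call against Col held in 7 of the 15 genes whichever acs2B or Col array was left out and was lost in 8. It was lost without Col replicate 1 in AT3G04210 (-0.57, adjusted p = 0.058), BZIP61 (-0.50, 0.065) and TBL26 (0.96, 0.066), and without Col replicate 3 in AT2G36690 (-0.39, 0.054). In IAGLU it was lost without Col replicate 1 (0.42, 0.093) or acs2B replicate 3 (0.49, 0.07), and in AT5G42760 without Col replicate 1 (0.72, 0.17) or acs2B replicate 1 or 3 (1.05, 0.068, and 1.02, 0.074). GH3.3 (-0.45 to -0.36, 0.06 to 0.11) and AT5G06790 (0.44 to 0.62, 0.051 to 0.14) lost it without Col replicate 1 or 3 or any 1 acs2B replicate. In TBL26, with all arrays, acs2B was 1.34 above Col and acs2C 1.34 below it. All acs2C arrays lay at the low bioC level, which acs2B shares in replicates 1 and 3 only, and the part of this level in the differences was not tested.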

How the results depend on the processing

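The count of 5161 calls against Col stayed within 1.5 times under most settings and moved to 2543 on the 6 arrays alone, which have fewer arrays to estimate the spread. The count of 3145 against the other lines moved to 62 within the high bioC level, where 1 acs2B array remains, and the count of 1388 called in both comparisons moved to 40 there. The replicate block gave 5181, 3190 and 1420 calls in the same order. Leaving out single acs2B or Col arrays gave 3750 to 5060 calls against Col, 1399 to 3546 against the lines and 659 to 1531 in both. The 125 probe sets in which acs2B lay beyond all 24 other arrays became 130 to 334 when 1 array was left out, since fewer arrays have to be cleared. A second quantile normalization turned the split of calls against Col from 2314 higher and 2847 lower to 2722 and 2488. Among the named genes 1 called difference changed sign: UGT85A5, -0.34 from the lines, was 0.01 within the high bioC level. The block ended the calls of IQD18 against the lines (-0.23, adjusted p = 0.058) and of PDF1.2b in both comparisons (0.86, 0.052, and 0.69, 0.055), and gained that of ndhJ against Col (-0.32, 0.041); it changed no other call of a named gene. RMA values carry no measure of signal over background, so dim probe sets, such as those under 4.65, are read with less certainty.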
